A study of Rattus norvegicus with 11 samples.

Results

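Penk and Pdyn are the genes of preproenkephalin and preprodynorphin, a pair of opioid peptide precursors. Both were found by their Ensembl identifiers (ENSRNOG00000008943 for Penk and ENSRNOG00000026036 for Pdyn), as 2 of the 15607 genes with values in the normalized count table. The data are RNA-seq profiles of the medial prefrontal cortex (mPFC) of Sprague-Dawley rats 2 to 3 months old, from 4 females in diestrus, 3 females in proestrus and 4 males. All rats were handled and housed in pairs, with males and females in separate rooms. The stage of the cycle was read from daily vaginal smears of the females, so that diestrus stands for low and proestrus for high ovarian hormone levels. Sex thus cannot be told apart from the room or from the smears. Diestrus females were killed early on the first day of that stage and proestrus females in the early afternoon, so stage and hour of collection cannot be told apart. Each library is the study's biological replicate of its group, and replicates are called here by the number in their label.

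Preproenkephalin is cut into Met- and Leu-enkephalin, peptides that act mainly at delta and mu opioid receptors. Preprodynorphin is cut into the dynorphins, which act mainly at kappa opioid receptors. In the cortex Penk RNA is carried largely by subsets of GABAergic interneurons and Pdyn RNA by subsets of interneurons and of projection neurons, while in the striatum Penk marks the projection neurons with adenosine A2a and dopamine D2 receptors and Pdyn those with dopamine D1 receptors. The comparisons asked whether the RNA of either precursor in the mPFC differed with the stage of the estrous cycle or with sex. These are bulk samples, in which fewer cells of a type and less RNA per cell cannot be told apart.

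The libraries held 15.9 to 24.6 M reads on genes, where M stands for 1000000. The tissue carried Gad1, the GABA-synthesizing enzyme of interneurons, at 3578 to 4801 normalized counts, and Cux2, a transcription factor of upper-layer cortical neurons, at 988 to 1635. No matched cell type marker was at 0 in any library. Of the 87 symbols in the opioid and cell type lists, 18 could be paired with an identifier in the table, and the dopamine receptors were not among them.

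The promoter of Pdyn is shown because the comparisons ask about a response to ovarian hormones, and its letters can be searched for the half-site of the estrogen receptor. It was taken from RefSeq (build GRCr8, chr3:137366504-137366753, minus strand), 250 bases ending next to the annotated transcription start. Matches to the letters of the TATA box and of the CCAAT box (on the opposite strand) are in capitals. The table of promoters held 1 of the 2 genes.
Pdyn promoter: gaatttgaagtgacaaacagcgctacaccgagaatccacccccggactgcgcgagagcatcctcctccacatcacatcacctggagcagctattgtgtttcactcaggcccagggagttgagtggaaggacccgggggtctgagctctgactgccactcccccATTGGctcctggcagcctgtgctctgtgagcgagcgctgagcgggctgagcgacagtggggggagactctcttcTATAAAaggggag
Both strands were searched for exact letters. TATAAA began 13 bases before the start, and 12.9% of 33469 promoter windows of this length hold it. CCAAT was found 87 bases before the start, and 34.0% of windows hold it. The estrogen half-site AGGTCA (14.1% of windows), the cyclic AMP response element TGACGTCA (1.59%), the AP-1 site TGANTCA (6.34%), the Egr site GCGTGGGCG (0.478%) and the GC box GGGCGG (30.5%) had no match in these 250 bases. A match or a missing match says only which letters are in this window, and whether they act as promoter elements was not tested.

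Penk, the enkephalin precursor, was read 1036 to 1773 times per library, which is 53.9 to 94.9 reads per 1000000 on genes and leaves a counting error of 2.37% to 3.11%. In diestrus replicates 2, 3, 4 and 5 it was at 1737, 1905, 1842 and 1087 normalized counts. In proestrus replicates 1, 3 and 5 it was at 1508, 1005 and 1533. In male replicates 2, 3, 4 and 5 it was at 1182, 1590, 1225 and 1087. The diestrus group thus held the highest 3 libraries of all and also a library at the low end, and its range overlapped both other groups. The means were 1643 ± 377 in diestrus (SD, n = 4), 1348 ± 298 in proestrus (n = 3) and 1271 ± 221 in males (n = 4), in that order, and no neighbours in the order differed beyond their spread.

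Pdyn, the dynorphin precursor, was read 344 to 702 times per library, which is 21.7 to 35.2 reads per 1000000 on genes, with a counting error of 3.77% to 5.39%. In diestrus replicates 2, 3, 4 and 5 it was at 613, 545, 518 and 522 normalized counts. In proestrus replicates 1, 3 and 5 it was at 465, 533 and 665. In male replicates 2, 3, 4 and 5 it was at 581, 628, 407 and 531. The lowest library was a male and the highest a proestrus female, and the 4 diestrus values lay inside the range of both other groups. The means were 550 ± 44.0 in diestrus (SD, n = 4), 554 ± 102 in proestrus (n = 3) and 537 ± 95.4 in males (n = 4), which lay closer together than any group's own SD.

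**Figure D1:**
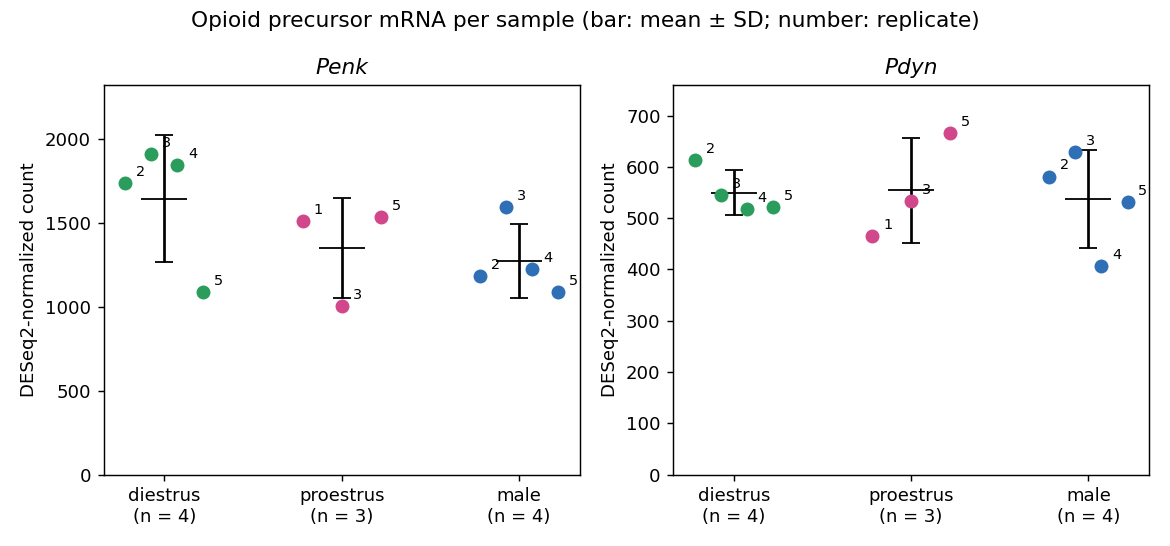
Normalized counts of Penk (left) and Pdyn (right) in each of the 11 libraries, by group, with both vertical axes starting at 0. Points are libraries and bars the group mean ± SD; 3 of the 4 diestrus libraries have the highest Penk values, and diestrus replicate 5 lies at 1087.

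Between proestrus and diestrus the log2 difference of Penk was -0.28 ± 0.20 (SE), a fold of 0.825 with a 95% interval of 0.614 to 1.11, and it did not pass the test (limma, adjusted p = 0.360). The exact permutation test over these 7 libraries gave p = 0.371 (two-sided, 35 splits, smallest possible p 0.0286). Of the 15607 genes, 395 passed the same limma test at a false discovery rate of 0.05, or 2.53%, and neither precursor was among them. An unadjusted p under 0.05 was found for 26.7% of genes and groups that did not overlap for 26.6%, and neither held for Penk or Pdyn. With edgeR on the recovered reads the log2 difference of Penk was -0.29 (adjusted p = 0.339, in a test that 2.7% of genes passed) and with DESeq2 -0.28 (adjusted p = 0.329, where 6.89% passed).

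For Pdyn the proestrus and diestrus levels differed by -0.00037 ± 0.15 on the log2 scale, a fold of 1.00 with a 95% interval of 0.802 to 1.25 (limma, adjusted p = 0.999). The exact permutation test gave p = 1.00. The groups overlapped. The interval gives the Pdyn differences that these libraries leave possible, and how small a difference the test could detect was not measured.

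Between diestrus and males the log2 difference of Penk was 0.35 ± 0.18, a fold of 1.28 with a 95% interval of 0.971 to 1.68. This was the largest of the measured differences of either gene across the 4 comparisons, and it did not pass (limma, unadjusted p = 0.0767, adjusted p = 0.558; exact permutation p = 0.143 over 70 splits of 8 libraries). In this comparison 20 of 15607 genes passed the limma test, or 0.128%, 9.62% had an unadjusted p under 0.05 and 3.84% had groups that did not overlap. Penk differed by 0.37 with edgeR (adjusted p = 0.542, where 0.141% of genes passed) and by 0.37 with DESeq2 (adjusted p = 0.513, where 0.75% passed). Pdyn differed between the same groups by 0.05 ± 0.14, a fold of 1.03 with an interval of 0.844 to 1.27 (limma, adjusted p = 0.903; exact permutation p = 0.829).

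Penk in proestrus stood at 1.05 times its male level, with an interval of 0.784 to 1.41 (log2 difference 0.07 ± 0.20, limma, adjusted p = 0.878; exact permutation p = 0.743), where 13 genes, or 0.0833%, passed. Pdyn stood at 1.03 times its male level, with an interval of 0.830 to 1.29 (log2 difference 0.05 ± 0.15, limma, adjusted p = 0.889; exact permutation p = 0.829). Groups that did not overlap were found for 13.3% of genes, an unadjusted p under 0.05 for 11.3%, and a pass with DESeq2 for 0.756%, none of which held for either precursor.

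With both stages joined, the 7 females had 1517 ± 354 normalized counts of Penk (SD) and 552 ± 66.7 of Pdyn, against 1271 ± 221 and 537 ± 95.4 in the 4 males. The log2 difference was 0.23 ± 0.17 for Penk, a fold of 1.17 with an interval of 0.906 to 1.52 (limma, adjusted p = 1.00; exact permutation p = 0.288 over 330 splits). For Pdyn it was 0.05 ± 0.12, a fold of 1.03 with an interval of 0.864 to 1.24 (limma, adjusted p = 1.00; exact permutation p = 0.721). In this comparison 21 genes, or 0.135%, passed with limma, 0.147% with edgeR and 0.493% with DESeq2, while 4.83% had an unadjusted p under 0.05 and 1.06% had groups that did not overlap. Neither precursor was in any of these sets.

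**Figure D2:**
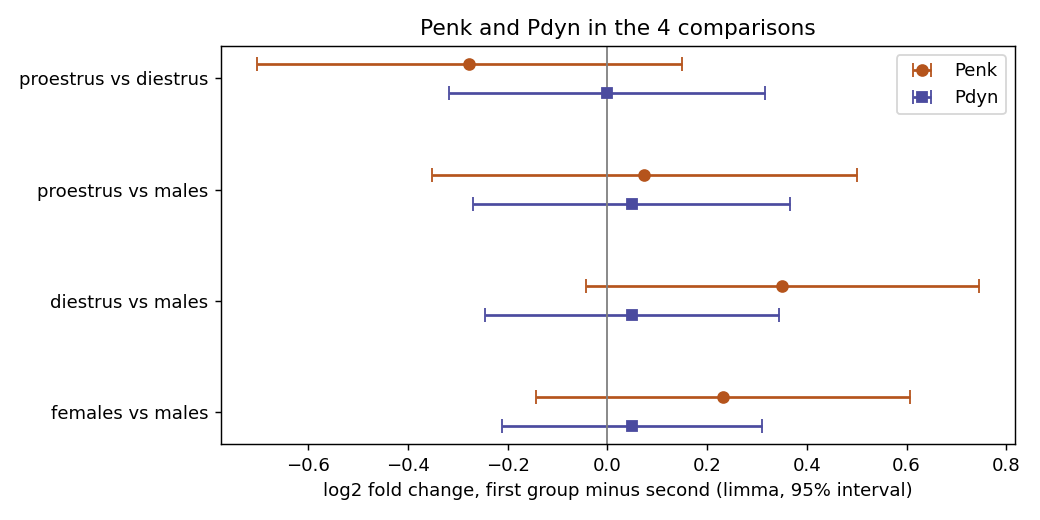
Log2 differences of Penk and Pdyn in the 4 comparisons, as points with 95% intervals from limma; the vertical line marks no difference. All 8 intervals cross it, and the Penk difference between diestrus and males, 0.35, lies farthest from it.

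Single libraries moved the Penk differences without changing a call. Each library was left out in turn, and diestrus replicate 5 is described because its Penk value stood low in its group. Without it, the other 3 diestrus values (1737 to 1905) all lay above the highest proestrus value (1533) and the highest male value (1590). The log2 difference became -0.46 between proestrus and diestrus (limma, unadjusted p = 0.0117, adjusted p = 0.0681) and 0.54 between diestrus and males (adjusted p = 0.189). Without that library the groups of 41.5% of all genes did not overlap between proestrus and diestrus and those of 8.41% between diestrus and males, and 11.4% and 0.103% passed the limma test. With all libraries the shares whose groups did not overlap were 26.6% and 3.84%, and neither precursor was among those genes.

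Other libraries did so as well. Without proestrus replicate 3, its lowest library at 1005, the difference between proestrus and diestrus shrank to -0.08 and that between proestrus and males grew to 0.27. Without male replicate 3, the highest male at 1590, the difference between diestrus and males was 0.46 (limma, adjusted p = 0.203). None of these passed.

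**Figure D3:**
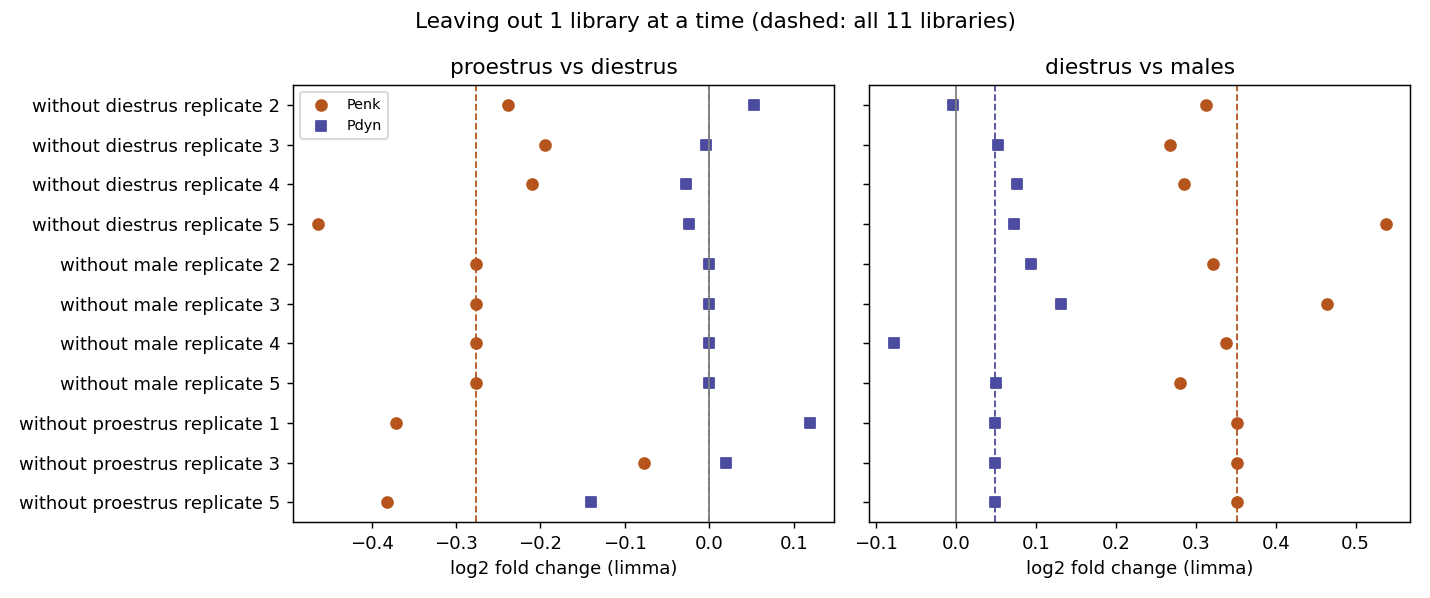
Log2 differences of Penk and Pdyn with each library left out in turn, for proestrus against diestrus (left) and diestrus against males (right); dashed lines mark the value from all 11 libraries. Penk between proestrus and diestrus ranged from -0.46 to -0.08, and Pdyn in that comparison lay on both sides of 0, from -0.14 to 0.12.

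The spread between animals of a group was set beside that of other genes. The pooled within-group SD of Penk was 0.32 on the log2 scale, larger than that of 98.0% of the 3553 genes whose mean count lay within 2-fold of Penk's, for which the median SD was 0.12. For Pdyn it was 0.22, larger than that of 82.7% of 4359 such genes, with a median of 0.15. Leaving out single libraries kept the Penk share between 95.2% and 98.8%. The Pdyn share moved more, from 64.5% to 88.0%, and was lowest without male replicate 4, the library with the lowest Pdyn. The coefficient of variation of Penk was 22.9% in diestrus, 22.1% in proestrus and 17.4% in males, and that of Pdyn was 8.0%, 18.4% and 17.8%. What set the spread between animals was not tested.

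**Figure D4:**
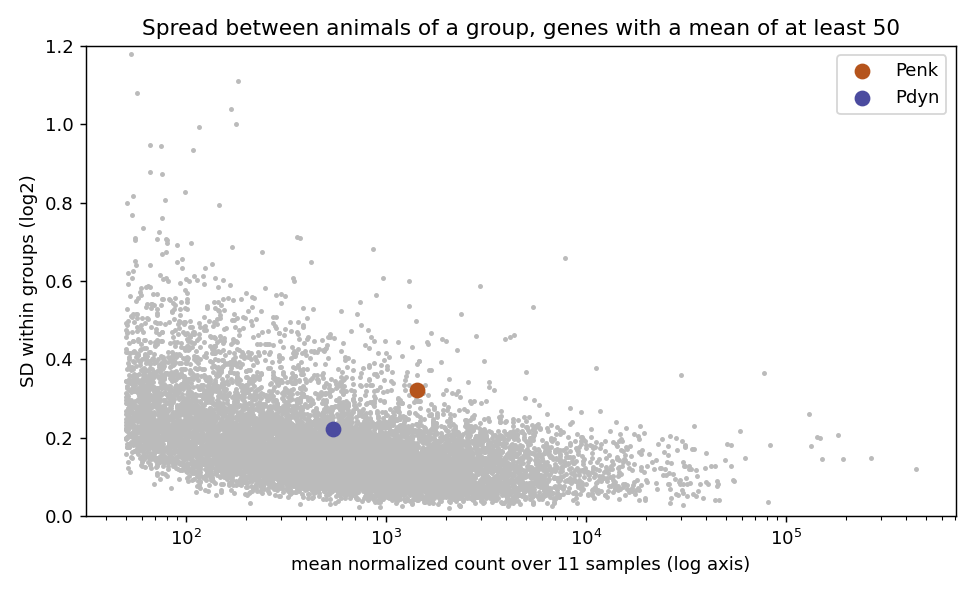
Pooled within-group SD (log2 scale) against mean normalized count (log axis) for the 11731 genes with a mean of at least 50, with Penk and Pdyn marked. Penk at 0.32 lies above most genes of its level and Pdyn at 0.22 lies closer to them; 12 genes lie above the top of the vertical axis at 1.2.

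The balance of the precursors was compared as the ratio of Penk to Pdyn reads in the same library. This ratio does not depend on the library's scaling, and it is not corrected for transcript length. In diestrus replicates 2, 3, 4 and 5 it was 2.83, 3.50, 3.55 and 2.08. In proestrus replicates 1, 3 and 5 it was 3.25, 1.88 and 2.30, and in male replicates 2, 3, 4 and 5 it was 2.03, 2.53, 3.01 and 2.05. Penk reads outnumbered Pdyn reads in every library, and the groups overlapped. The mean ratio was 2.99 ± 0.688 in diestrus (SD, n = 4), 2.48 ± 0.697 in proestrus (n = 3) and 2.41 ± 0.466 in males (n = 4). The log2 ratio differed by -0.28 between proestrus and diestrus (exact permutation p = 0.371), by 0.30 between diestrus and males (p = 0.257), by 0.03 between proestrus and males (p = 0.971) and by 0.18 between females and males (p = 0.415). Over the 12 permutation tests of Penk, Pdyn and their ratio, the lowest adjusted p (Benjamini-Hochberg) was 0.830.

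Penk and Pdyn did not follow each other closely across the 11 libraries. Pearson's r of their log2 values was 0.276 (permutation p = 0.417, adjusted over 13 relations 0.588) and Spearman's rho 0.236 (permutation p = 0.487, adjusted 0.633). Without the 2 libraries farthest from the Penk median, proestrus replicate 3 and male replicate 5, r was 0.305, and with group means removed it was 0.269 (exact permutation within groups, p = 0.431). As a description, Pdyn was more like Penk than 60.7% of 11730 other genes were, and Penk was more like Pdyn than 68.1% were.

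The other relations were with cell type markers. Sst, the somatostatin gene of an interneuron class, was at 5523, 5895, 3954 and 3721 normalized counts in diestrus replicates 2 to 5, at 3963, 3635 and 4321 in proestrus replicates 1, 3 and 5, and at 3965, 4782, 3615 and 3844 in male replicates 2 to 5. Diestrus replicates 2 and 3 were high for both Sst and Penk, and diestrus replicate 5 was the lowest diestrus library for both, but diestrus replicate 4 had the second highest Penk of all libraries (1842) beside a middling Sst (3954). Across the 11 libraries r between Penk and Sst was 0.756 (permutation p = 0.00499, adjusted over 13 relations 0.0649) and rho 0.736 (p = 0.0126, adjusted 0.132, permutation). Without proestrus replicate 3 and male replicate 5, r was 0.721, and with group means removed it was 0.693 (exact permutation within groups, p = 0.0133). The relation thus did not pass the correction, and its part in the Penk differences was not tested. The other matched interneuron markers did not move with Penk in one way. For Dlx1 and Dlx2, transcription factors of interneurons, r with Penk was 0.583 (permutation p = 0.0635, adjusted 0.259) and 0.161 (permutation p = 0.668, adjusted 0.789), and without the same 2 libraries it was 0.273 and -0.268. With group means removed it was 0.618 for Dlx1 (exact permutation within groups, p = 0.0362) and 0.168 for Dlx2 (exact permutation within groups, p = 0.552). For Gad1 it was -0.378 (permutation p = 0.252, adjusted 0.422), and -0.403 with group means removed. Whether Sst lay closer to Penk than to Pdyn was not tested, and between Pdyn and Sst r was 0.512 (permutation p = 0.107, adjusted 0.259) and rho 0.700 (permutation p = 0.0204, adjusted 0.132). Without proestrus replicate 5 and male replicate 4, the libraries farthest from the Pdyn median, r was 0.522, and with group means removed 0.552 (exact permutation within groups, p = 0.0341). For the other interneuron markers r with Pdyn was 0.503 for Dlx1 (permutation p = 0.114, adjusted 0.259), -0.0658 for Dlx2 (permutation p = 0.843, adjusted 0.909) and -0.0390 for Gad1 (permutation p = 0.909, adjusted 0.909). Without the same libraries these were 0.488, 0.217 and -0.554, and with group means removed 0.533, -0.0604 and -0.0720.

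Adora2a, the adenosine A2a receptor of striatal projection neurons, was at 102, 104 and 305 normalized counts in proestrus replicates 1, 3 and 5. In diestrus it lay between 141 and 180 and in males between 95.8 and 157. Proestrus replicate 5, the highest for Adora2a, was also the highest library for Pdyn, at 665. Across the 11 libraries r between Pdyn and Adora2a was 0.713 (permutation p = 0.0146, adjusted over 13 relations 0.0948) and rho 0.573 (p = 0.0712, adjusted 0.185, permutation). Without proestrus replicate 5 and male replicate 4, r was 0.494, and with group means removed over all 11 it was 0.728 (exact permutation within groups, p = 0.0350). The relation did not pass the correction, and the part of Adora2a-carrying cells in the Pdyn values was not tested. Between Penk and Adora2a r was 0.493 (permutation p = 0.119, adjusted 0.259) and rho 0.609 (permutation p = 0.0526, adjusted 0.185). Without proestrus replicate 3 and male replicate 5, r was 0.281, and with group means removed 0.413 (exact permutation within groups, p = 0.302). Whether Adora2a lay closer to Pdyn than to Penk was not tested. Adcy5, the other matched marker of striatal projection neurons, had r of -0.263 with Penk (permutation p = 0.452, adjusted 0.588; -0.444 without the 2 libraries) and of 0.368 with Pdyn (permutation p = 0.260, adjusted 0.422; 0.185 without proestrus replicate 5 and male replicate 4).

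**Figure D5:**
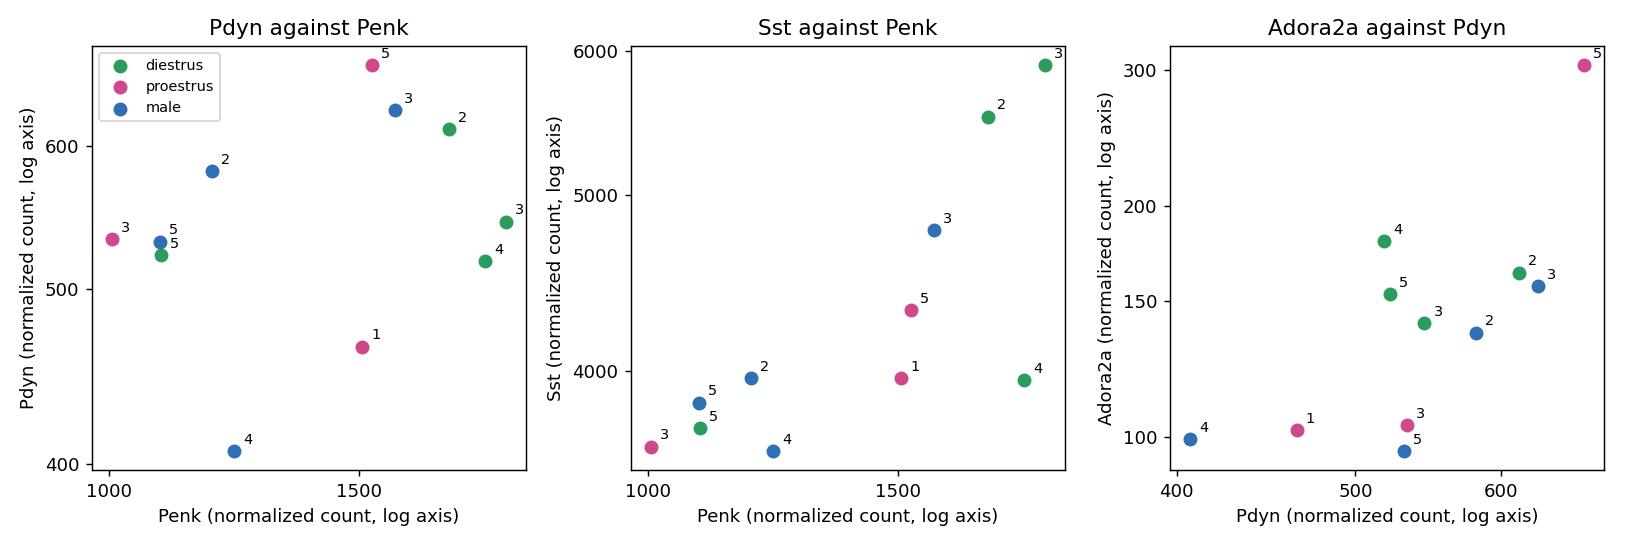
Pdyn against Penk, Sst against Penk and Adora2a against Pdyn, in normalized counts on log axes, with 1 point per library coloured by group and numbered by replicate. Diestrus replicates 2 and 3 lie at the top right for Penk and Sst, and proestrus replicate 5 lies apart at the top right for Pdyn and Adora2a.

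Levels of matched cell type markers were set beside these values. The 4 matched interneuron markers summed to 8990 to 10404 normalized counts in diestrus, 8757 to 9970 in proestrus and 8583 to 9453 in males. The 2 matched markers of striatal projection neurons, Adora2a and Adcy5, summed to 2861 to 3356, 3121 to 3815 and 3007 to 3304, and the ranges of these 2 lists overlapped between all groups. Adcy5, at 2721 to 3511, made up most of the striatal sum, which therefore says little of Adora2a, at 95.8 to 305. The 2 matched astrocyte markers summed to 5608 to 7132, 6897 to 7688 and 6889 to 7646, and the 2 matched microglia markers to 682 to 918, 634 to 757 and 669 to 761, in the same order. Drd1 and Drd2, the dopamine receptors that define striatal projection neurons, were not matched. Rgs9 and Scn4b, planned for the same list and reported by the study as higher in females than in males, were not matched either. Cux2, the matched marker of cortical projection neurons, was at 988, 1100, 1597 and 1412 in diestrus replicates 2, 3, 4 and 5, at 1440 to 1633 in proestrus and at 1321 to 1635 in males. Its lowest libraries, diestrus replicates 2 and 3, were among the 3 highest for Penk, and it did not pass between diestrus and males (log2 difference -0.27, limma, adjusted p = 0.535) or between proestrus and diestrus (log2 difference 0.28, limma, adjusted p = 0.207). Mog, a myelin gene of oligodendrocytes, was at 838 to 1381 in diestrus, 792 to 916 in proestrus and 613 to 915 in males, and did not pass between diestrus and males (log2 difference 0.52 ± 0.15, SE, limma, adjusted p = 0.336). The part of these cells in the Penk difference between diestrus and males was not tested.

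Of 40 symbols in a list of the opioid system, 6 could be paired with an identifier, Penk and Pdyn included, and none of the 5 opioid receptors was among them. None of the 6 passed the limma test in any of the 4 comparisons. Their median log2 difference between proestrus and diestrus was -0.0056 over values from -0.28 to 0.55, beside -0.0143 over all genes. Ece2, a peptidase that can cut neuropeptides, Gnaz, an inhibitory G protein alpha subunit, and Adcy5, an adenylyl cyclase that opioid receptors inhibit, differed by -0.03 ± 0.13, -0.01 ± 0.09 and 0.10 ± 0.07 (SE, log2) between proestrus and diestrus, with adjusted p-values from limma of 0.900, 0.945 and 0.388.

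Kcnj6, a subunit of the potassium channel that opioid receptors open, had the largest difference of the list. It was at 107, 134, 118 and 154 normalized counts in diestrus replicates 2, 3, 4 and 5, at 160, 187 and 215 in proestrus replicates 1, 3 and 5, and at 158, 141, 194 and 152 in male replicates 2, 3, 4 and 5. All proestrus values lay above all diestrus values, as was so in either direction for 26.6% of genes, and males overlapped both. The log2 difference between proestrus and diestrus was 0.55 ± 0.16 (SE) with a 95% interval of 0.21 to 0.89, and it did not pass with limma (adjusted p = 0.0829) or edgeR (adjusted p = 0.0863). It passed with DESeq2 (adjusted p = 0.0305, in a test that 6.89% of genes passed), and with limma without diestrus replicate 5 (adjusted p = 0.0296) or without male replicate 3 (adjusted p = 0.0494). It did not pass with quantile normalization (limma, adjusted p = 0.124), and the adjusted p from limma rose to 0.236 without proestrus replicate 5. On the authors' edgeR count table, which was not scaled to library depth, it did not pass either (limma, adjusted p = 0.423).

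The genes most like each precursor were ranked by Pearson's r of log2 values over the 11 libraries, among 11730 other genes with a mean of at least 50. The nearest to Penk were ENSRNOG00000015551 (r = 0.909), ENSRNOG00000020781 (r = 0.905) and ENSRNOG00000015231 (r = 0.894), and 72 genes had r above 0.8. The nearest to Pdyn were ENSRNOG00000008428 (r = 0.862), ENSRNOG00000045570 (r = 0.832) and ENSRNOG00000007584 (r = 0.821), and 9 genes had r above 0.8. The table gives identifiers without symbols, and these 6 genes were not paired with names. ENSRNOG00000008428 ranged from 106 to 261 normalized counts, a wider range than that of Pdyn in proportion, whereas ENSRNOG00000015551 ranged only from 514 to 663 while Penk ranged from 1005 to 1905.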

How the data were processed

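Poly(A) libraries without strand information were sequenced from mPFC punches of 11 rats. Per the methods and the submitters' processing notes, the authors trimmed reads (Trimmomatic 0.32), aligned them to Rnor_5.0 (TopHat2 2.0.11, Bowtie2 2.1.0), counted them per gene (HTSeq 0.6.1p1) and dropped genes under a minimum set from spike-ins. The table used is the deposited count signal per gene divided by DESeq2 (1.4.5) size factors. A second deposited table, the authors' edgeR (3.6.7) count signal (15724 genes), was used as an alternative only. Its values were 0.956 to 1.07 times the recovered reads, while the DESeq2 size factors ran from 0.846 to 1.28. That table was therefore not scaled to library depth. A proestrus library that the authors left out was not analysed here.

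Each value in the first table was a whole multiple of what 1 read is worth in its library (100% within a tolerance of 0.01), so reads were recovered. Values were tested as log2(value + 1) with limma 3.58.1 (trend) over all 15607 genes, in 1 fit of 3 groups plus a fit of females against males, with Benjamini-Hochberg adjustment at 0.05. A fold is on that log2 scale. The alternatives were edgeR 4.0.16 and DESeq2 1.42.0 on recovered reads, pseudocounts of 0.5 and 5, a mean minimum of 50, quantile normalization, the second table, each comparison's groups alone, a replicate number block and each library left out. Single values were tested by two-sided exact permutation over samples, correlations with 100000 permutations. The limma fits were checked on simulated data. Members and gene lists were chosen with earlier results of these data known. The genes named are the members, the list genes that could be matched and the 3 genes most like each member. Symbols came from the identifiers given for the members and the symbol column of a supplementary gene table, since 0 of 47357 RefSeq genes carried an Ensembl identifier. Without strand, reads of a gene and of one antisense to it cannot be told apart. A cell type marker and the sum of its list are not reported here.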

Additional observations from a re-analysis of the deposited data

How the results depend on the processing

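Over 158 alternative fits of Penk and Pdyn in the 4 comparisons, 0 passed the threshold (lowest adjusted p 0.0681, limma). The sign was kept in 143 and opposite in 15, all of the latter for log2 differences near 0. The 143 include fits that could change the p-value but not the log2 difference. These left out a library of the group not compared, set a mean minimum or used a comparison's groups alone. The replicate number block likewise left the differences between diestrus and males unchanged. Such fits do not test the sign, so the count of 143 overstates how firmly it held. Between proestrus and diestrus, Pdyn (-0.00037) became 0.0112 with edgeR and 0.0128 with DESeq2. Between proestrus and males the authors' edgeR count table, which was not scaled to library depth, gave -0.0451 for Penk and -0.0225 for Pdyn. Leaving out each library gave log2 differences between proestrus and diestrus of -0.46 to -0.08 for Penk and -0.14 to 0.12 for Pdyn; between proestrus and males, -0.0312 to 0.27 and -0.0904 to 0.17; between diestrus and males, 0.27 to 0.54 and -0.0777 to 0.13; and between females and males, 0.16 to 0.35 and -0.0779 to 0.13. The sign of Pdyn turned without male replicate 4 in the 3 comparisons with males, without diestrus replicate 2 in both comparisons with diestrus, without proestrus replicate 1 or 3 between the stages and without proestrus replicate 5 between proestrus and males, and that of Penk between proestrus and males without proestrus replicate 1 or 5. The number of genes passing, with limma 395, 13, 20 and 21 in the order above, was 1076, 118, 117 and 77 with DESeq2, and ranged over single libraries left out from 0 (without proestrus replicate 1 or 3) to 1774 (without diestrus replicate 5), from 2 to 26, from 1 to 88 and from 1 to 24. The causes were not tested.

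With the replicate number as a block, Pdyn between proestrus and diestrus was 0.0767 and Penk -0.32, Penk between diestrus and males was 0.35 (limma, adjusted p = 0.425), and 517, 3, 47 and 18 genes passed. Males were killed on days when females were, but no label says that a number marks a day. The numbers were not taken to pair the libraries, because 2 of 8 same-numbered pairs did not exceed a correlation of 0.1. The 8 correlations ran from 0.0116 to 0.591, while those between libraries of different numbers ran from -0.670 to 0.580. Of 10 libraries, 6 correlated best with their own number, and whether some numbers mark a shared day was not tested. The block changed no call of either precursor. With 3 or 4 animals a group, the spread between libraries exceeded the counting error of either gene.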
